A study of Homo sapiens with 6 samples.

Results

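Histone modifiers are the enzymes that add chemical groups to histones or take them off, together with the subunits they cannot work without. The 59 genes described here were chosen by name from 19970 protein-coding genes: 20 histone methyltransferases, 12 demethylases, 9 acetyltransferases, 11 deacetylases and 7 Polycomb genes. A gene was counted as marked by GABPA when a listed peak had its summit no more than 1 kb from one of the ends of the gene in RefSeq. By this rule 16 of the 59 genes were marked in at least 1 list (27.1%, against 18.6% of all protein-coding genes). Of 8541 peaks in the 3 lists, 38 belonged to them.

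GABPA is the DNA-contacting subunit of GA-binding protein (GABP), an ETS family transcription factor that reads a short element around GGAA, and its partner subunits, encoded by GABPB1 and GABPB2, carry the activating part. It is known for binding promoters rich in CpG. Methyltransferases and demethylases set lysine methylation on histone tails, acetyltransferases and deacetylases set acetylation, and Polycomb complexes keep silenced genes silent through methylation and ubiquitination of histones.

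GABPA chromatin immunoprecipitation followed by sequencing (ChIP-seq) was done with 1 antibody in the human melanoma cell line A-375, in 3 conditions with 1 ChIP library each. The B1 knockout line had the B1 subunit of GABP knocked out at exon 2 and then received a TERT knock-in, called a TERT rescue in the sample title. The first control line carried a ROSA26 knockout, and the second control was the parental line with no knockout. The edited lines were grown from single sorted cells, so each is 1 clone, and the loss of B1, the added TERT and the choice of clone cannot be told apart. Each condition also had an input sample, which was not analysed here. With 1 library per condition there is no replicate check on any difference and no p-value between conditions. The lists hold 1660 B1 knockout, 3857 ROSA26 and 3024 parental peaks. The background recovered from the peak values, which grows with depth, was 9.86 reads in the B1 knockout, 14.2 in the ROSA26 and 15.4 in the parental library. Its part in the shorter B1 knockout list was not tested.

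Promoter windows from the RefSeq table (GRCh38.p14), 250 bases before to 50 after a listed start, are printed here for the members on whose peaks the results turn. The capitals mark each CGGAAG, the core of the GABP element, or its reverse complement CTTCCG, and the motif CCGGAAG used below is such a core with c before it, or g after it on the other strand. The first 3 lie at starts of members with a peak in all 3 lists, and the next 2 at members with a peak in both controls and none in the B1 knockout. For KMT2D and HDAC10 the summits lie at the start of a neighbour, whose window is given, followed by the window of HDAC10 itself.
KAT5 (chr11:65712002-65712301, plus strand): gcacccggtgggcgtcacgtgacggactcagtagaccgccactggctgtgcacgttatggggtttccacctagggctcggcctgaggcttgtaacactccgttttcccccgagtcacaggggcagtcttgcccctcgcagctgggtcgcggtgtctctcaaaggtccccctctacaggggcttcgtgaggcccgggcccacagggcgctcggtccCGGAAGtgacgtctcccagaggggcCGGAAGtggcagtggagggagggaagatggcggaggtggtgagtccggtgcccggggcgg
KDM5A (chr12:389271-389570, minus strand): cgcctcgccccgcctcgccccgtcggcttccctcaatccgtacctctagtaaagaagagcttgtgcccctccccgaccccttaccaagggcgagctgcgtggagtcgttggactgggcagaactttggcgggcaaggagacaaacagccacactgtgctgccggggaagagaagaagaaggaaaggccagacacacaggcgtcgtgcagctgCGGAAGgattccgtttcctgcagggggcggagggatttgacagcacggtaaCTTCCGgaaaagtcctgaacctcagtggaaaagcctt
HDAC8 (chrX:72572794-72573093, minus strand): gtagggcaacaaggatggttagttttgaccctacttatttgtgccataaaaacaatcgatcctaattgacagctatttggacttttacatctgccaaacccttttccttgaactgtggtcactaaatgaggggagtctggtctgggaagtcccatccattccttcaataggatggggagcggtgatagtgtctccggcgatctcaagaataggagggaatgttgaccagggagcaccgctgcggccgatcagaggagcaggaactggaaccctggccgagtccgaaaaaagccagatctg
ASXL1 (chr20:32358081-32358380, plus strand): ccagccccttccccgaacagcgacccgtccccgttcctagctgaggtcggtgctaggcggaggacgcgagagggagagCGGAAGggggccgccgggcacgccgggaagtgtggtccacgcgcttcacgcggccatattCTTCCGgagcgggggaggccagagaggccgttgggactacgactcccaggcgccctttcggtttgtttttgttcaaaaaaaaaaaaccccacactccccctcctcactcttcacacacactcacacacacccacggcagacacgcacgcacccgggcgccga
SETDB1, the second of its 2 listed starts (chr1:150926113-150926412, plus strand): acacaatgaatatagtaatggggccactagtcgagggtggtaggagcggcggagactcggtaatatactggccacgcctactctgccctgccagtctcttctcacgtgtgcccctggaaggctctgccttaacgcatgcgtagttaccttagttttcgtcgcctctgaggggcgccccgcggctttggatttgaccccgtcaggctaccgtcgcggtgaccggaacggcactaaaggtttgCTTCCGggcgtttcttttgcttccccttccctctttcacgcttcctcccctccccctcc
PRKAG1, next to the end of KMT2D (chr12:49018727-49019026, minus strand): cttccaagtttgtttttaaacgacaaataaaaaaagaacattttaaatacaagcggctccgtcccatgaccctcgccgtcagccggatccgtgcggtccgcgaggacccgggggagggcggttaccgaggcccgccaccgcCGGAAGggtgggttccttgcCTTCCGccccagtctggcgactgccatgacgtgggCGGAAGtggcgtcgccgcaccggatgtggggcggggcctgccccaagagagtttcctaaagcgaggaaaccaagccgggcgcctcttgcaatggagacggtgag
TUBGCP6, next to the end of HDAC10 (chr22:50244974-50245273, minus strand): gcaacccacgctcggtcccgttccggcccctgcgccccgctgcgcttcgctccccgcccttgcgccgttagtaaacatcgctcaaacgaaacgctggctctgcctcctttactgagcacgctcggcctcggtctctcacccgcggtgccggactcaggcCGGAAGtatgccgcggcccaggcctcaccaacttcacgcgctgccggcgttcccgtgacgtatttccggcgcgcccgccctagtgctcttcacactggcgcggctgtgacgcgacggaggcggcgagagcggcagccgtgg
HDAC10 (chr22:50251216-50251515, minus strand): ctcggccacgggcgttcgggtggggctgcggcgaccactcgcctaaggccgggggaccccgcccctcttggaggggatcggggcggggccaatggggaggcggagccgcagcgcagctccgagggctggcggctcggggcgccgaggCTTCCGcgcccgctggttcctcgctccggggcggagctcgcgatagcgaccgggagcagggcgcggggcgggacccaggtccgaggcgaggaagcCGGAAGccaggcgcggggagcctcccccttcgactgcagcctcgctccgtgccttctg

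GABPA marked 6 of the 59 histone modifier genes in the B1 knockout list, 16 in the ROSA26 list and 15 in the parental list. These are 10.2% (exact Clopper-Pearson 95% interval 3.82 to 20.8), 27.1% (16.4 to 40.3) and 25.4% (15.0 to 38.4), and such intervals cover counting error only. Among all 19970 protein-coding genes the shares were 9.31% in the B1 knockout, 18.5% in the ROSA26 and 15.5% in the parental list, each inside the interval of the members in the same list. All 15 members with a parental peak also had a ROSA26 peak, as had 3062 of the 3090 protein-coding genes with a parental peak. SETD1A was marked in the ROSA26 list alone. Of the 15 marked in both controls, against a background of 15.3% of all genes, 6 also had a B1 knockout peak (40.0%, 16.3 to 67.7), namely KMT2D, KDM5A, KAT5, KAT8, HDAC8 and HDAC10. The background for this share is 60.4% of 3062 genes, inside the same interval. It lies above the interval under some of the other rules tried, with no test made. With the start of the gene alone, 3 of the 12 members marked in both controls had a B1 knockout peak (5.49 to 57.2%, against 60.9% of all genes). With a peak counted for its nearest gene only, 2 of 10 had one (2.52 to 55.6%, against 57.9%). The background stays inside the interval with a reach of 500 bp (6 of 14, 17.7 to 71.1%, against 60.9%). The same holds for a reach of 2 kb (6 of 16, 15.2 to 64.6%, against 60.1%). When each list was held to its strongest 1660 peaks, 6 members were marked in the B1 knockout, 9 in the ROSA26 and 8 in the parental list, and 6 of the 8 marked in both controls had a B1 knockout peak, beside 89.1% of all genes.

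**Figure D1:**
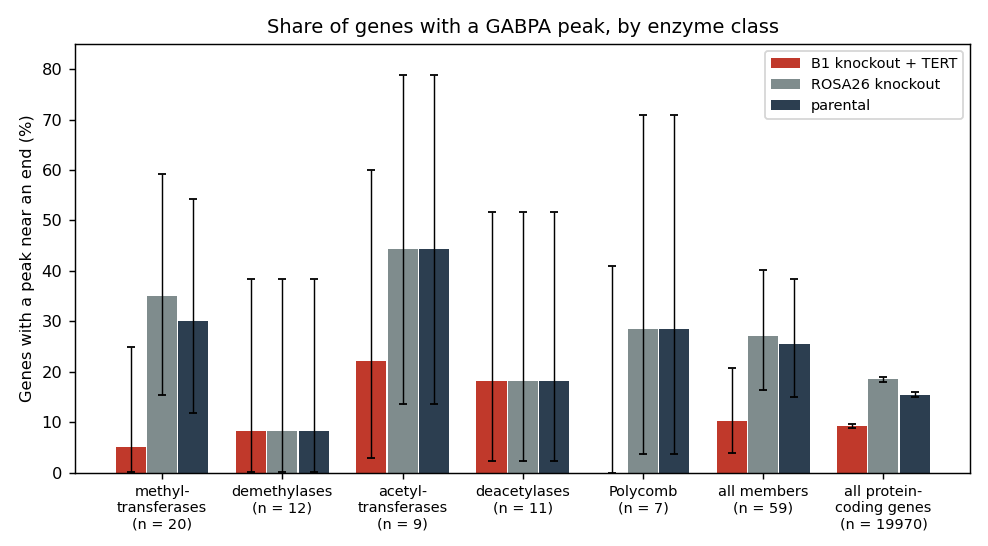
Bars give the percentage of genes with a GABPA summit within 1 kb of an end of the gene (y axis) for each class, for the 59 members and for all 19970 protein-coding genes (x axis), in the B1 knockout, ROSA26 and parental lists, with exact 95% intervals. The acetyltransferases reached 22.2, 44.4 and 44.4% and the demethylases 8.33% in each list, and the intervals of the 5 classes overlap.

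The classes differed in how many of their genes were marked, within wide intervals. The shares of all protein-coding genes, 9.31% in the B1 knockout, 18.5% in the ROSA26 and 15.5% in the parental list, lay inside the interval of every class in the same list. Of the 20 methyltransferases, 1 had a B1 knockout, 7 a ROSA26 and 6 a parental peak. Of the 9 acetyltransferases, 2 had a B1 knockout peak, and 4 a ROSA26 and a parental peak. Of the 11 deacetylases, 2 were marked in each list, and of the 12 demethylases 1, KDM5A, in each list. Of the 7 Polycomb genes, none had a B1 knockout peak (0%, 0 to 41.0) and 2 had a ROSA26 and a parental peak. The parental shares ran from 8.33% of demethylases (0.211 to 38.5) to 44.4% of acetyltransferases (13.7 to 78.8), so with 7 to 20 genes a class no order of the classes can be read from them.

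No peak was listed near 43 of the 59 genes in any library (72.9%, 59.7 to 83.6), against 81.4% of all protein-coding genes. Among the methyltransferases these were KMT2A, KMT2C, KMT2E, KMT5B, KMT5C, SETD1B, SETD2, NSD1, NSD2, NSD3, DOT1L, EHMT2 and ASH1L. Among the demethylases they were KDM1A, KDM2A, KDM2B, KDM3A, KDM3B, KDM4A, KDM4B, KDM4C, KDM5B, KDM6A and KDM6B. KAT2A, KAT2B, KAT6A, KAT6B and CREBBP were the unmarked acetyltransferases, and HDAC1 to HDAC7, HDAC9 and HDAC11 the unmarked deacetylases. The Polycomb repressive complex that methylates histone H3 had no peak at any of its genes in the list, EZH1, EZH2, EED and SUZ12, and neither had BAP1, a deubiquitinase of histone H2A. No peak within 1 kb of an end of these genes passed the peak caller's threshold, and occupancy under that threshold was not measured. SETD1B, KDM4B, KAT6B, HDAC3 and HDAC9 had listed control peaks beyond that distance, described under the other observations.

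Acetyltransferases gave the plainest case of a promoter marked in all 3 lists. KAT5 (chromosome 11, 65712018 to 65719604) is the catalytic subunit of the TIP60 complex, which acetylates histones H4 and H2A. Its peak had a fold enrichment, the authors' own value for each peak, of 10.9 in the B1 knockout list, 13.8 in the ROSA26 list and 12.4 in the parental list, with 179, 323 and 301 reads at the summit. Fold enrichment is the pileup of reads at the summit over the local background, and folds rank peaks within 1 list, so no direction is read from folds of different lists. The summits lay 12, 32 and 21 bp upstream of the listed start. In the window printed above, CCGGAAG occurs 2 times on the plus strand, from -36 to -30 and from -11 to -5 relative to the start, with 25 bp between the first bases of the copies. The B1 knockout summit lay 1 bp from the copy nearest the start, the ROSA26 summit on the other copy, and the parental summit 9 bp from that other copy. KAT5 was the 1 member with 2 or more copies in a window, as were 477 of 15811 protein-coding genes with a window (3.02%, 2.76 to 3.30).

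KAT8 (chromosome 16, 31117664 to 31131393), which acetylates histone H4, was the second acetyltransferase marked in every list. Its folds were 7.05 in the B1 knockout list (103 reads), 13.7 in the ROSA26 list (258 reads) and 8.94 in the parental list (199 reads). The summits lay 3, 14 and 10 bp from the low-coordinate end of KAT8 and 21, 10 and 34 bp from the far end of BCKDK, a kinase gene of branched amino acid breakdown, so this peak counts for both genes. KAT8 is not in the promoter table, and its start was not assigned.

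KAT7 and EP300 were marked in both controls but not in the B1 knockout list. KAT7 (chromosome 17, 49788681 to 49835026), the HBO1 acetyltransferase of histones H3 and H4, had no B1 knockout peak and folds of 4.49 in the ROSA26 list (97 reads) and 3.42 in the parental list (71 reads), 45 and 61 bp upstream of its start. These summits also lay 474 and 490 bp from the end of the FAM117A span on the side where FAM117A starts. EP300 (chromosome 22, 41092592 to 41180077), the p300 coactivator, had no B1 knockout peak and folds of 5.78 in the ROSA26 list (87 reads) and 4.37 in the parental list (75 reads). Its summits lay 952 and 929 bp upstream of the listed start, the farthest among members whose summits lay upstream of their own start. The gene is not counted when summits must lie within 500 bp. Both genes stood in the weaker part of the lists: their peaks were stronger by −log10 p, the peak caller's own measure of significance, than 37.0% and 40.8% of ROSA26 peaks, and than 11.2% and 22.1% of parental peaks.

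**Figure D2:**
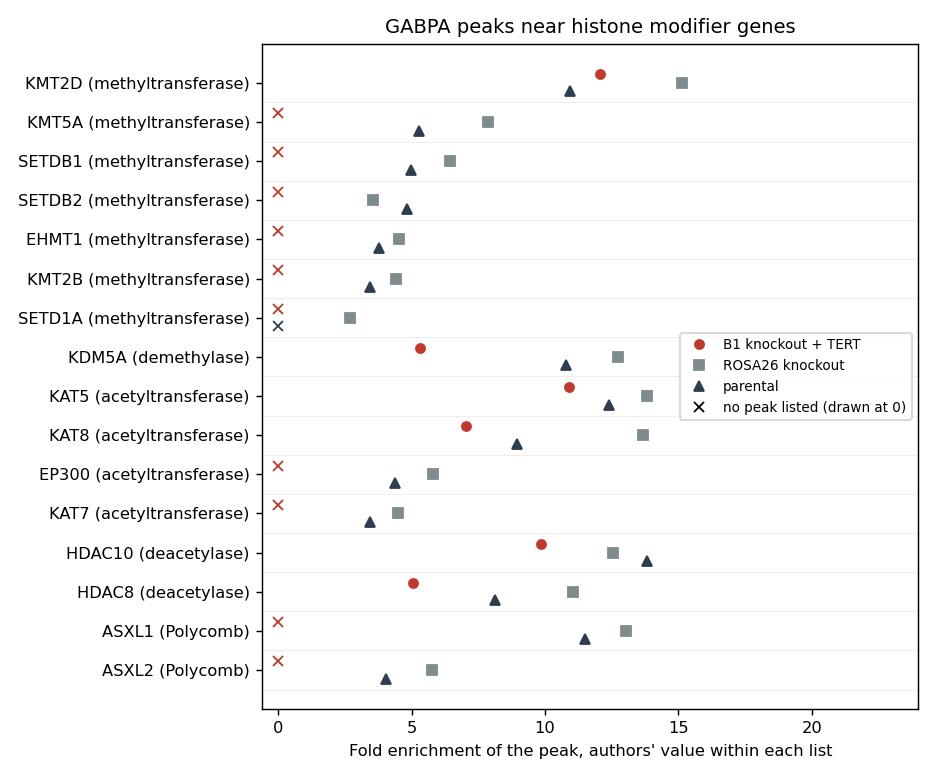
Each row is 1 of the 16 marked members with its class, the x axis is the authors' fold enrichment of its strongest peak, and crosses at 0 stand for lists without a peak. KMT2D, KDM5A, KAT5, KAT8, HDAC10 and HDAC8 have a symbol above 0 in all 3 lists, and ASXL1 has folds of 13.0 and 11.5 in the controls with no B1 knockout peak.

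The strongest peak counted for a methyltransferase lay at the start of a neighbouring gene. KMT2D (chromosome 12, 49018978 to 49060794) methylates histone H3 at enhancers. The peak counted for it had folds of 12.1 in the B1 knockout list (−log10 p of 89.9), 15.1 in the ROSA26 list (299.2) and 10.9 in the parental list (195.9), and was the strongest of all member peaks by −log10 p in the ROSA26 and in the parental list. It lay 158, 143 and 147 bp beyond the far end of the gene, 41974, 41959 and 41963 bp from the start of KMT2D. The summits were 44, 59 and 55 bp upstream of the start of PRKAG1, a regulatory subunit of AMP-activated protein kinase. The PRKAG1 window printed above holds CCGGAAG once, 60, 45 and 49 bp from the B1 knockout, ROSA26 and parental summits. A separate CGGAAG core, with no c before it, lies 5, 5 and 1 bp from them.

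The remaining marked methyltransferases had peaks in the controls alone. KMT5A (chromosome 12, 123384132 to 123409353), which monomethylates histone H4, had folds of 7.85 in the ROSA26 list (148 reads) and 5.26 in the parental list (121 reads), 383 and 359 bp upstream of its start. SETDB1 (chromosome 1, 150926263 to 150964737), which trimethylates histone H3 in heterochromatin, had folds of 6.43 (ROSA26, 188 reads) and 4.98 (parental, 155 reads). Its ROSA26 summit was 23 bp upstream and its parental summit 18 bp downstream of the second listed start, where the window holds CCGGAAG on the minus strand 14 and 21 bp from the summits. An uncharacterised transcript on the other strand, LOC107985204, starts between them, 1 bp from the ROSA26 summit.

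SETDB2 (chromosome 13, 49444274 to 49495003), a relative of SETDB1, had folds of 3.53 in the ROSA26 list (77 reads) and 4.83 in the parental list (83 reads). Its summits, 47 and 132 bp upstream, lay 163 and 78 bp from the end of the CAB39L span on the side where CAB39L starts. The read-through gene SETDB2-PHF11 shares the start of SETDB2. A second ROSA26 peak of fold 2.30 lay 986 bp beyond its far end and 36 bp from an end of PHF11. EHMT1 (chromosome 9, 137619005 to 137836127), which with EHMT2 dimethylates histone H3 in silent chromatin, had folds of 4.51 (ROSA26, 82 reads) and 3.78 (parental, 72 reads). Its summits lay within 500 bp upstream of its own start, and 101 and 44 bp upstream of a start of ARRDC1-AS1, a transcript on the other strand.

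KMT2B and SETD1A, which methylate histone H3 at promoters, had peaks in the weaker part of their lists. Those of KMT2B were stronger than 30.3% of ROSA26 and 8.83% of parental peaks. KMT2B (chromosome 19, 35718003 to 35738878) had folds of 4.40 in the ROSA26 list (76 reads) and 3.45 in the parental list (63 reads), 358 and 417 bp upstream of its start and 607 and 548 bp from the far end of ZBTB32. SETD1A (chromosome 16, 30957754 to 30984664) had 1 peak, in the ROSA26 list, with a fold of 2.67 and 48 reads, 378 bp upstream of its start. That peak was stronger than 4.39% of its list, and it is lost at a −log10 q of at least 10.

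The demethylase KDM5A and the deacetylase HDAC8 had a peak at their own start in every list. KDM5A (chromosome 12, 280057 to 389320) removes methyl groups that mark active promoters. Its folds were 5.31 in the B1 knockout list (57 reads), 12.7 in the ROSA26 list (261 reads) and 10.8 in the parental list (212 reads). The summits lay 153, 166 and 169 bp upstream of KDM5A and 126, 139 and 142 bp downstream of the start of CCDC77, which runs the other way, so the peak lies near the starts of both genes. The KDM5A window holds CCGGAAG once, on the strand opposite to the gene from 13 to 19, 166 to 182 bp away from the summits. A separate CGGAAG core, from -38 to -33, lies 115, 128 and 131 bp from the B1 knockout, ROSA26 and parental summits.

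HDAC8 (chromosome X, 72329516 to 72572843), a class I deacetylase, had folds of 5.04 in the B1 knockout list (54 reads), 11.0 in the ROSA26 list (167 reads) and 8.13 in the parental list (150 reads). Its summits, 149, 172 and 153 bp upstream of the start, were near the end of no other protein-coding gene. The window holds neither CCGGAAG nor CGGAAG, which says only that these letters are not in these 300 bases. In the B1 knockout list HDAC8 and KDM5A had the weakest of the 6 member peaks, with −log10 p of 20.4 and 22.7, stronger than 29.3% and 33.6% of that list, and in each control list HDAC8 was again the weakest of the 6.

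HDAC10 (chromosome 22, 50245183 to 50251265), a deacetylase known to act on polyamines, was marked from beyond its far end. The folds were 9.86 in the B1 knockout list (127 reads), 12.5 in the ROSA26 list (230 reads) and 13.8 in the parental list (228 reads). The summits lay 125, 119 and 95 bp beyond that end and 35, 41 and 65 bp upstream of the start of TUBGCP6, a component of the gamma-tubulin ring. The TUBGCP6 window holds CCGGAAG 51, 45 and 21 bp from the summits. HDAC10's own window holds CCGGAAG as well, from -9 to -3, and no summit of any list lay in it.

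**Figure D3:**
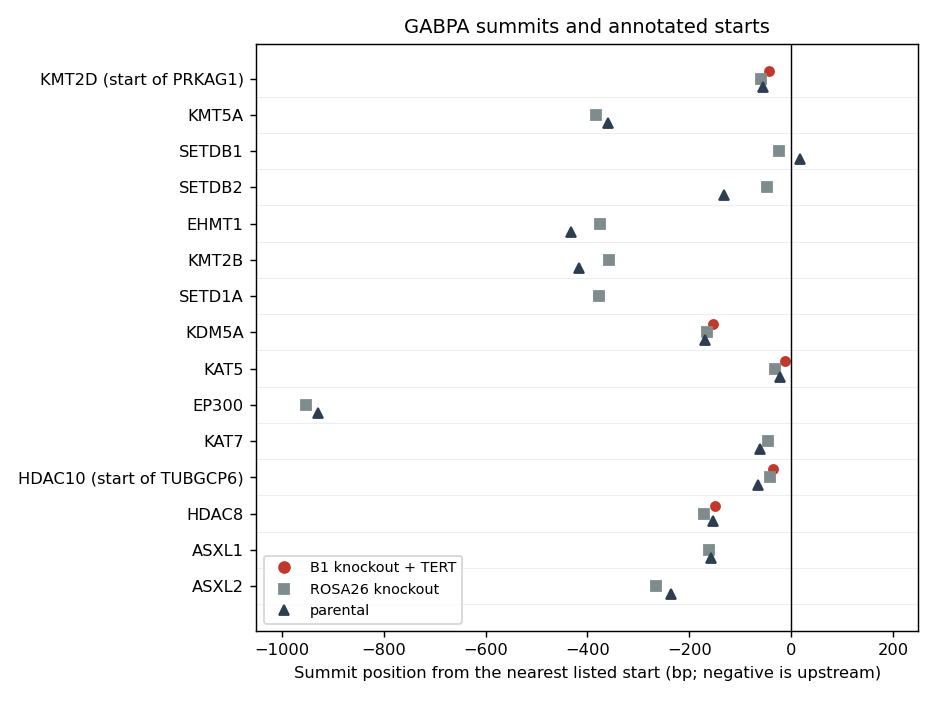
Each row is a marked member, and the x axis gives the position of its summit in bp from the nearest listed start of the gene, negative upstream. For KMT2D and HDAC10 the start is that of the neighbour PRKAG1 or TUBGCP6, and KAT8, which has no listed start, is left out. Summits of 1 gene in different lists lie at most 85 bp apart, while EP300 stands apart at -952 and -929 bp.

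The 2 Polycomb genes with a peak both encode partners of BAP1, and neither had a B1 knockout peak. ASXL1 (chromosome 20, 32358331 to 32439319) had folds of 13.0 in the ROSA26 list (263 reads) and 11.5 in the parental list (209 reads), 161 and 157 bp upstream of its start. These peaks were stronger than 87.6% and 80.3% of their lists, below those of KMT2D, KAT5 and KAT8 in the ROSA26 list and of KMT2D, KAT5 and HDAC10 in the parental list. The ASXL1 window holds CCGGAAG on the minus strand from -112 to -106, 49 and 45 bp from the summits, and a second CGGAAG core 6 and 10 bp from them. ASXL2 (chromosome 2, 25733753 to 25878487) had weaker peaks, with folds of 5.78 in the ROSA26 list (120 reads) and 4.05 in the parental list (99 reads), 266 and 236 bp upstream of its start.

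Whether a member marked in both controls also had a B1 knockout peak followed its strength in the parental list, with ASXL1 as the exception. The 6 members with a B1 knockout peak had a median parental fold of 10.9 (8.13 to 13.8), and the 9 without one a median of 4.37 (3.42 to 11.5). Across all genes marked in both controls, cut into 4 bins of equal size by rising parental fold, 8.36, 48.2, 87.3 and 97.8% had a B1 knockout peak. Of the members in these bins, 0 of 5, 0 of 3, 2 of 2 and 4 of 5 had one. The 15 members had a median parental fold of 5.26, against 7.08 over all 3062 genes, and ASXL1 was 1 of 17 genes without a B1 knockout peak among the 766 of the strongest bin.

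**Figure D4:**
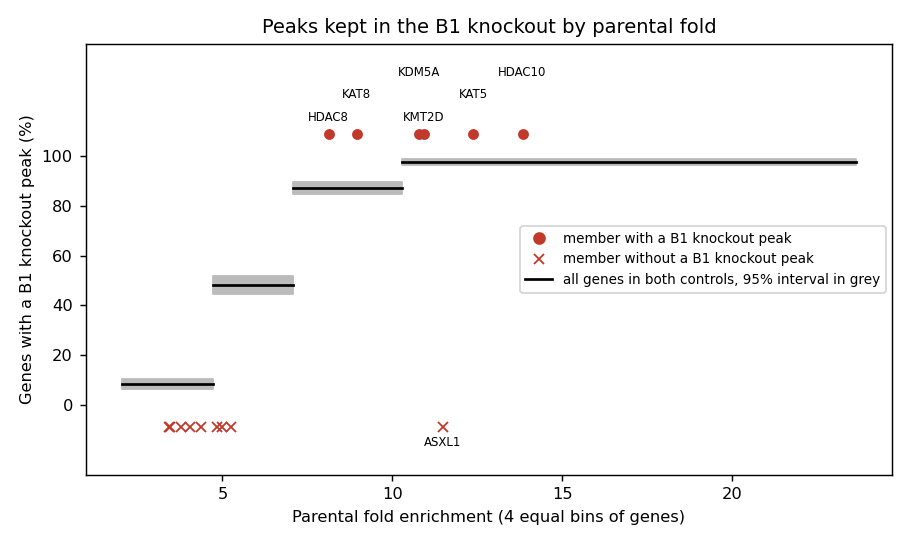
Lines give the percentage of genes marked in both controls that also have a B1 knockout peak (y axis) in 4 equal bins of parental fold (x axis), with exact 95% intervals in grey. Circles above the lines are the 6 members with a B1 knockout peak, and crosses below are the 9 without, of which ASXL1 at a fold of 11.5 lies in the bin where 97.8% of genes have one.

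Control folds were also carried over to the lower background of the B1 knockout library, as a description that takes the fold as unchanged. On that footing ASXL1 would have a −log10 p of 100.2 from its ROSA26 fold and 83.1 from its parental fold, against a median of 34.2 in the B1 knockout list. For the other 8 members without a B1 knockout peak, the same values ran from 10.3 to 45.1 with the ROSA26 folds and from 9.67 to 22.7 with the parental folds. All of these values exceeded the lowest −log10 p in the B1 knockout list, 4.74. Its 10th percentile, 13.6, was passed by 7 of 8 members with the ROSA26 folds and by 4 of 8 with the parental folds. Members with a B1 knockout peak show how far such values can miss. KDM5A would have 96.7 and 75.5 from its ROSA26 and parental folds, and HDAC8 77.7 and 47.9, against listed values of 22.7 and 20.4. KAT8 and HDAC10 also came out above their listed values, and so did KMT2D with its ROSA26 fold. KAT5 came out below its listed value with both folds (109.5 and 93.3 against 112.5), and KMT2D with its parental fold (76.6 against 89.9). The listed values of KAT5, KAT8 and HDAC10, however, rest on higher local backgrounds than the 1 used here. At the background used here, their own B1 knockout folds would give 76.6, 37.7 and 64.9, and the values from their control folds lay above these. Such a value is no proof that the caller would have listed the peak, and the part of depth was not tested.

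Where the summits sat relative to starts differed from the whole series in a few genes. Of members whose strand is in the table, the strongest peak lay nearer the far end of the gene for 2 of 5 in the B1 knockout, 2 of 15 in the ROSA26 and 2 of 14 in the parental list, in each case KMT2D and HDAC10, beside 4.60, 4.45 and 4.45% of all marked genes. The strongest peak was within 200 bp of a listed start for 3 of 5, 7 of 15 and 7 of 14 members, against 79.5, 75.5 and 77.1% of all marked genes. The upper bounds of the ROSA26 and parental intervals of the members, 73.4 and 77.0%, lay just under those shares, and no test was made. With the start of the gene alone as the reference point, 3 of 52 members with a listed start were marked in the B1 knockout, 13 in the ROSA26 and 12 in the parental list, beside 9.77, 19.2 and 16.1% of genes. Another gene's end lay within 1 kb of the strongest peak for 4 of 6, 7 of 16 and 7 of 15 members, beside 46.7, 42.2 and 43.5% of marked genes.

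Summits at members coincided between lists. The 6 peaks of the B1 knockout lay a median of 14 bp from the ROSA26 summit and 12 bp from the parental summit, and at most 23 and 30 bp. Over all overlapping peaks the medians were 18 and 19 bp. The 15 ROSA26 and parental pairs lay a median of 24 bp apart, against 17 bp over all pairs.

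The GABP motif went with summits, at members as elsewhere. Promoter windows were listed for 52 of the 59 members, 83 windows in all, and BAP1, SETD1B, DOT1L, NSD3, KAT6A, KAT8 and HDAC5 had none. CCGGAAG, searched on both strands, was in a window of 10 of 52 members (19.2%, 9.63 to 32.5), against 16.5% of 15811 protein-coding genes. Among member windows with a summit inside, it was in 2 of 3 for the B1 knockout, 6 of 8 for the ROSA26 and 7 of 9 for the parental list, beside 71.0, 60.9 and 64.2% of all such windows. Overlapping windows of 1 gene are counted separately here, and 2 such windows of ASXL1 both hold the motif and the control summits. Among member windows without a summit it was in 9 of 80, 5 of 75 and 4 of 74, beside 8.53, 5.80 and 6.47%. Windows of KDM2B, KDM4C, HDAC4 and HDAC10 held the motif and no summit of any list.

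Related genes, in 4 lists of partner subunits and 1 list of other histone enzymes, hold 136 genes, of which 16 had a B1 knockout, 40 a ROSA26 and 34 a parental peak. These are 11.8% (6.88 to 18.4), 29.4% (21.9 to 37.8) and 25% (18 to 33.1), against 9.31, 18.5 and 15.5% of all genes. In the full lists the control intervals lie above the background and that of the B1 knockout holds it. The control counts depended on list length. Cut to the length of the B1 knockout list, the ROSA26 and parental lists marked 17 and 18 of the 136 genes. The background was then 9.46 and 9.49% of all genes, and no interval is given for these counts. The related genes were chosen with earlier results of these data known, so the intervals are no independent check. In the full lists 34 were marked in both controls. Of these, 16 had a B1 knockout peak (47.1%, 29.8 to 64.9), against 60.4% of all genes. The 107 partner subunits alone gave 12 genes with a B1 knockout peak, 32 with a ROSA26 and 27 with a parental peak. Of 44 partners of acetyltransferases, 5, 13 and 9 were marked in the B1 knockout, ROSA26 and parental lists. The highest parental folds among those marked in all 3 lists were at ING4 and DMAP1, subunits that work with KAT7 and KAT5.

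DMAP1, of the TIP60 complex, had folds of 23.5 in the B1 knockout, 22.0 in the ROSA26 and 17.7 in the parental list, the highest fold of any peak in the B1 knockout list. ING4, of the KAT7 complex, had folds of 9.42, 20.3 and 18.4. TADA3 and SUPT20H, of the SAGA complex around KAT2A, had no B1 knockout peak, with folds of 7.90 and 10.8 in the ROSA26 and 7.73 and 6.66 in the parental list. The TADA3 peak was also near ARPC4 and ARPC4-TTLL3.

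Of 27 partners of deacetylases, 2, 9 and 9 were marked in the B1 knockout, ROSA26 and parental lists. GPS2, of the NCOR complex of HDAC3, had folds of 14.0, 14.5 and 12.8, and SIN3A, the scaffold of the SIN3 complex, folds of 7.45, 11.8 and 11.5. ARID4A and MIER1 had parental folds of 5.86 and 5.15 and no B1 knockout peak. The peaks of GPS2, SIN3A and MIER1 were also near another gene, NEURL4, MAN2C1 and DNAI4 in that order.

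Of 12 partners of the COMPASS methyltransferases, 2, 4 and 4 were marked in the same order of lists. CXXC1, the CpG-binding subunit, had folds of 7.41, 12.4 and 10.0 (a peak also near MBD1), and RBBP5, of the catalytic core, had 3.10, 7.02 and 6.77. HCFC1, a cofactor of these complexes, had no B1 knockout peak and folds of 11.0 in the ROSA26 and 10.8 in the parental list, while MEN1 had 4.63 and 4.51.

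Of 24 Polycomb partners, 3, 6 and 5 were marked. CBX8, a chromodomain reader, had folds of 6.998, 8.65 and 9.32 and RBBP4, a histone-binding subunit, 6.64, 9.43 and 9.14 (a peak also near ZBTB8OS). RING1 and PHC1 had parental folds of 4.66 and 2.95 and no B1 knockout peak. Of 29 other histone enzymes, 4, 8 and 7 were marked, among them the deacetylase SIRT6 (5.22, 10.5 and 9.93) and the acetyltransferase HAT1 (5.04, 6.97 and 7.43). SIRT3 and SIRT7 had parental folds of 6.25 and 4.26 and no B1 knockout peak. The peaks of SIRT6, SIRT3 and SIRT7 were also near ANKRD24, PSMD13 and MAFG, in that order.

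**Figure D5:**
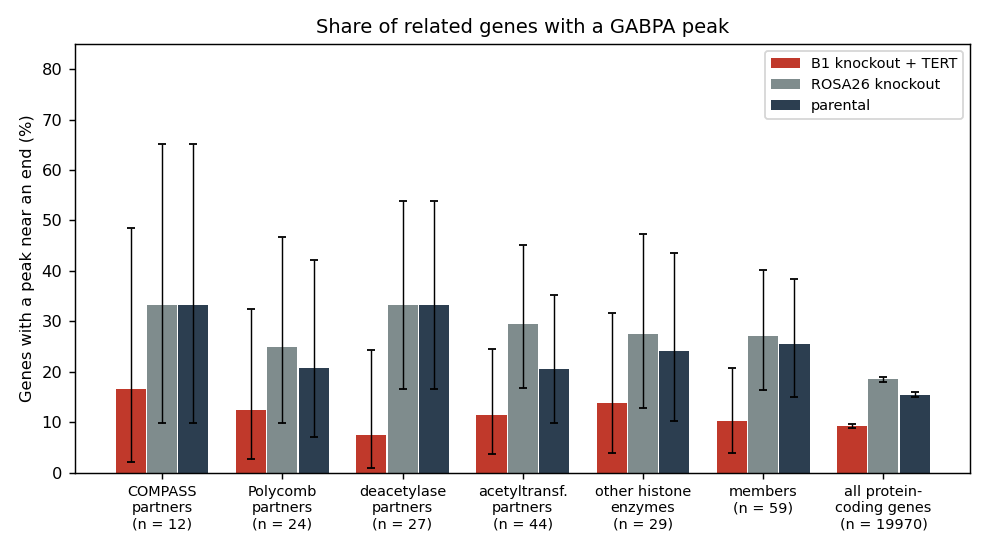
Bars give the percentage of genes with a GABPA summit within 1 kb of an end (y axis) for 4 lists of partner subunits, other histone enzymes, the 59 members and all protein-coding genes (x axis), in the B1 knockout, ROSA26 and parental lists, with exact 95% intervals. Each group has its lowest bar in the B1 knockout, and the intervals of these 5 lists and the members overlap.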

How the data were processed

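GABPA ChIP-seq peak lists of 3 libraries were used as deposited, 1 per ChIP sample. Bowtie2, SAMtools, MACS2 and the hg38 build are named in the submitters' processing notes, while versions, thresholds and how the input entered are not stated there or in the files. The deposited lists give each peak's fold enrichment over local background, the −log10 of its p-value and q-value, and a score that is 10 times the −log10 q-value with decimals dropped. All coordinates are hg38, 1-based.

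Reads at each summit were solved from the deposited fold and −log10 p with the Poisson formula of MACS2 and 1 scale factor per library (0.924 B1 knockout, 1 ROSA26, 0.860 parental), giving whole reads within 0.05 for all peaks. The solver was tested on simulated data. Gene spans, listed starts and promoter windows came from RefSeq tables of GRCh38.p14. Windows cover 250 bases before to 50 after a start and match 52 of 59 members. Sums used Python 3.11.15, pandas 2.3.3 and scipy 1.17.1, with exact Clopper-Pearson 95% intervals.

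The members, classes, lists of related genes and alternatives were chosen with earlier results of these data known. Every member with a peak in any list is named with its values. Of each such list, the 2 genes of highest parental fold with and the 2 without a B1 knockout peak, among those marked in both controls, are named. Sequences were to be shown for the 3 members of highest parental fold with and the 3 without a B1 knockout peak. KMT2D and HDAC10 are shown by the neighbour's window that holds the summit, KMT5A was left out because its summits lie outside its window, and KDM5A, HDAC8 and HDAC10's own window were added after their values were seen. No test between conditions was made.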

Additional observations from a re-analysis of the deposited data

How the results depend on the processing

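Of 158 recomputed values, 128 stayed within 1.5 times the reported count and 30 did not. With the start of the gene alone, 3 members had a B1 knockout peak and 3 of 12 marked in both controls had one, against 60.9% of all genes; in the B1 knockout list 0 methyltransferases, 1 acetyltransferase, 1 deacetylase and 10 related genes were marked, and 1 deacetylase in each control list. Genes without a listed start drop out by construction. Of all genes with one, 9.77, 19.2 and 16.1% were then marked in the B1 knockout, ROSA26 and parental lists. With a peak counted for its nearest gene only, 3 members had a B1 knockout peak, and 2 of 10 marked in both controls had one (57.9% of all genes). By class, 0 methyltransferases were marked in the B1 knockout list, 0 demethylases in any list and 1 deacetylase in each. Of all genes, 7.22, 14.8 and 12.3% were then marked in the B1 knockout, ROSA26 and parental lists. With lists of 1660 peaks, 9 members were marked in the ROSA26 and 8 in the parental list, beside 9.46 and 9.49% of all genes. They held 3 and 2 methyltransferases, 2 and 2 acetyltransferases and 1 and 1 Polycomb genes, and 17 and 18 related genes were marked. With summits anywhere in the gene, 2 demethylases were marked in each control list, beside 20.8% of all genes in the ROSA26 and 17.2% in the parental list. The longer motif CCGGAAGT was in a window of 3 members, against 10 with CCGGAAG. A reach of 500 bp or 2 kb, a −log10 q of at least 10, an overlap of 1 bp or of 50% of both peaks, and the shorter core CGGAAG each moved no value by over 1.5 times. No paired analysis was possible because each condition has 1 ChIP library. Depth and clone differ with condition, and their parts were not tested.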

Other observations

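Some members had peaks that the distance rule does not count, and none of these was listed in the B1 knockout. SETD1B, a methyltransferase of the COMPASS family, had a peak 7119 bp inside an end of its span in the ROSA26 list (fold 4.85, 92 reads) and 7141 bp inside it in the parental list (fold 4.36, 93 reads). KDM4B, a demethylase, had a peak 14248 bp (ROSA26, fold 3.76, 63 reads) and 14135 bp (parental, fold 3.91, 67 reads) inside its far end, at no listed start of the gene. KAT6B had a ROSA26 peak of fold 3.55, at -329 bp from an internal start, and HDAC9 a ROSA26 peak of fold 3.64 deep inside the gene.

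Peaks beyond the far ends of HDAC3 and KAT5 lay at neighbours. The HDAC3 peak was 1776 bp (ROSA26, fold 5.16) and 1774 bp (parental, fold 4.61) beyond the gene, at -105 and -107 bp from the start of DIAPH1. A ROSA26 peak of fold 2.91 lay 1198 bp beyond KAT5 and at -4 bp from the start of RNASEH2C.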
